A study of Mus musculus with 18 samples.

Results

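RNA sequencing of the mouse macrophage cell line J774.1 was used to measure what the CTBP inhibitor 4-Cl-HIPP does to gene expression in cells without functional CTBP1 and CTBP2. Of the 18 samples of the series, the 6 described here were chosen by their sample titles: 3 Ctbp1/2dKO samples treated with 0.25 mM 4-Cl-HIPP for 4 h and 3 Ctbp1/2dKO samples that received vehicle (PBS/DMSO) for the same 4 h. The dKO cells carry CRISPR-Cas9 knockouts of both Ctbp1 and Ctbp2, were grown out from single cells and were checked by the study at the DNA and protein level. How many clones the 3 replicates of a group come from, and whether they were grown on separate days, is not given in the sources used here. The study calls them biological triplicates without saying what was separate. The p-values therefore measure a spread between samples of a group, estimated from all 18 samples, that may be technical. Wildtype J774.1 cells under the same 0.25 mM 4-Cl-HIPP or vehicle (3 samples each) and dKO cells under 1.5 mM of another CTBP inhibitor, MTOB (3 samples), are set beside them where that shows how the dKO cells differ.

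CTBP1 and CTBP2 are transcriptional corepressors that bind DNA-bound factors and recruit histone-modifying enzymes, and they are related to D-2-hydroxyacid dehydrogenases, whose NAD(H)-binding fold they keep. 4-Cl-HIPP, a chlorophenyl propanoic acid that carries an oxime, is a substrate-like compound made to occupy the dehydrogenase pocket of CTBPs. The comparison asks which genes the compound changes where both of its intended targets are knocked out.

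Expression was compared as TPM, a transcript level per gene length that is scaled to the same total in every sample. The dKO samples had a Ctbp1 level of 24.4 to 25.6 TPM under vehicle, against 204 to 238 TPM in wildtype vehicle samples. Ctbp2 RNA stayed at 73.5 to 79.4 TPM in dKO vehicle samples, against 87.8 to 96.9 TPM in wildtype, a level that says nothing about whether the edited transcript makes protein. Neither transcript passed the test between 4-Cl-HIPP and vehicle in dKO cells, with log2 fold changes of -0.06 and -0.06. Of 17 macrophage markers, 13 had a mean above 1 TPM in the 6 samples, and the defining complement genes C1qa, C1qb and C1qc and the receptor gene Mertk were not among them. The summed level of the macrophage markers was 3453 to 3481 TPM under vehicle and 3307 to 3357 TPM under 4-Cl-HIPP. Of the markers of 7 other cell types, 4 genes had a mean above 1 TPM: Lck, Ighm, Pecam1 and Itgax. The B cell sum, nearly all of it Ighm, was 65.8 to 72.9 TPM under vehicle and 79.0 to 89.3 TPM under 4-Cl-HIPP, and its part in the results was not tested. In bulk RNA, fewer cells expressing a gene and less of its RNA per cell cannot be told apart.

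4-Cl-HIPP changed few genes in the dKO cells. More of them were higher than lower in the fit of all 18 samples, a balance that did not hold when only the 6 dKO samples compared were fitted (3 higher, 4 lower). Among 16383 genes tested, 25 (0.153%) passed an adjusted p-value below 0.05 together with a fold change above 1.5, of which 20 (0.122%) were higher and 5 (0.0305%) lower under 4-Cl-HIPP (limma, Benjamini-Hochberg). Without the fold limit, 82 genes (0.501%) passed, 66 of them higher (0.403%) and 16 lower (0.0977%). Across all genes tested the median log2 fold change was 0.00428, and 51.9% of genes were on the higher side. The 3 samples of a group correlated with each other at 0.985 to 0.987 (Pearson, log2 TPM + 1, across genes), and samples of different groups at 0.984 to 0.987, ranges that overlap. In each of the 82 genes the 3 samples under 4-Cl-HIPP did not overlap the 3 under vehicle, as in 13.7% of all genes tested.

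The number of calls rests on the spread estimated from all 18 samples. With only the 6 samples compared in the fit, 7 genes were called, 3 higher and 4 lower, of which 2 (Gdpd5 and Rgs2) were among the 25, and for the other 23 the adjusted p lay between 0.064 and 0.35 (limma). Of the 82 genes past the adjusted p without the fold limit, 3 still passed in that fit. Leaving out 1 dKO sample at a time kept 9 of the 25 calls each time: Tgfbr1, B4galt1, Mt2, Angptl2, Jun, Jund, Usp2, Ccl3 and Msr1. Leaving out 4-Cl-HIPP replicate 1 lost 15 calls, replicate 2 lost 5 and replicate 3 lost 11, while leaving out vehicle replicates 1, 2 and 3 lost 14, 14 and 10.

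**Figure D1:**
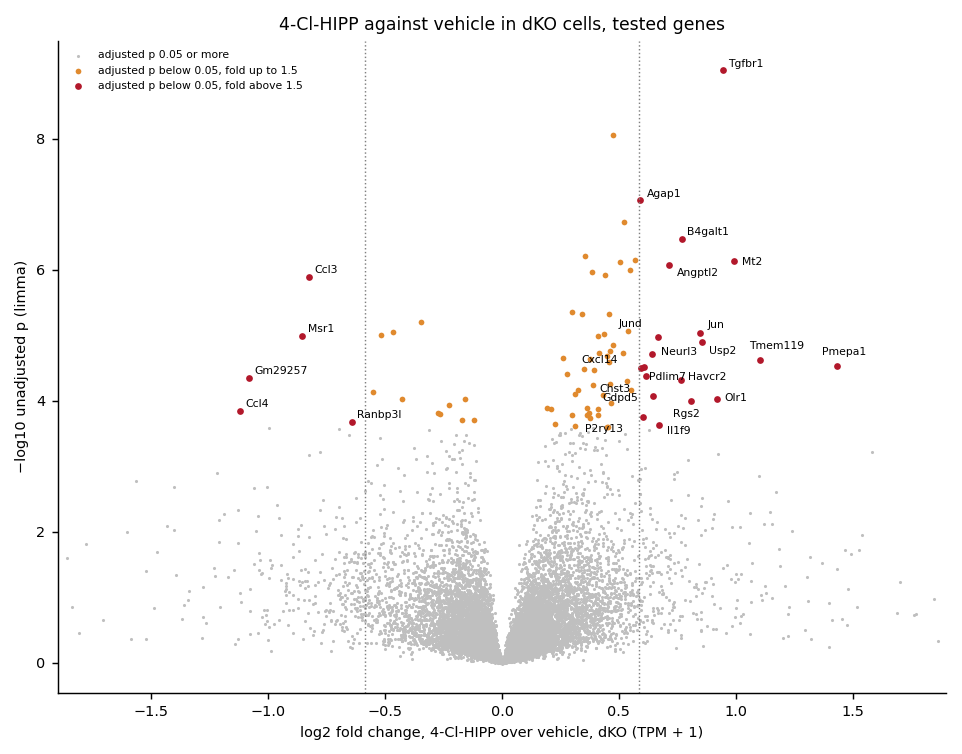
Log2 fold change of 4-Cl-HIPP over vehicle in dKO cells (x, on log2(TPM + 1)) against −log10 of the unadjusted limma p-value (y), 1 point per gene. Dotted lines mark the 1.5-fold limit, the 25 called genes are red and named, and the other 57 genes past adjusted p 0.05 are orange. The called genes lie mostly on the right, led by Tgfbr1. The x axis stops at 1.9 on either side, which leaves out 30 genes, none of them called.

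The smallest p-value of all belonged to Tgfbr1 (ENSMUSG00000007613, chr4:47353134-47414931, plus strand), which encodes the type I receptor kinase for TGF-beta. Positions are those of the GRCm39 genome with Gencode M39. TGF-beta binds a type II receptor, which activates the type I receptor, which in turn phosphorylates SMAD proteins that enter the nucleus and switch on target genes, several of which feed back on the pathway. Tgfbr1 stood at 39.1, 34.2 and 38 TPM in vehicle replicates 1 to 3 and at 79.6, 66.8 and 70.5 TPM in 4-Cl-HIPP replicates 1 to 3. Every treated sample was above every vehicle sample, and the log2 fold change was 0.94 ± 0.0695 (SE, n = 3 against 3, adjusted p = 1.47e-05, limma with Benjamini-Hochberg). Pmepa1 (ENSMUSG00000038400, chr2:173066251-173118444, minus strand), a SMAD target whose product dampens TGF-beta signalling, had the largest change of the 25, from 26.4, 15 and 21 TPM to 72.3, 48.3 and 51.3 TPM. Its log2 fold change was 1.43 ± 0.241 (adjusted p = 0.0126), and the spread within each group was wide: the adjusted p-value was 0.08 without 4-Cl-HIPP replicate 1 and 0.0675 without vehicle replicate 2 (limma, Benjamini-Hochberg).

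Skil, which encodes the SMAD corepressor SnoN and is itself a TGF-beta target, rose below the fold limit. It read 37.6, 37.1 and 35.9 TPM under vehicle and 53, 50.1 and 49.8 TPM under 4-Cl-HIPP, a log2 fold change of 0.46 ± 0.0654 (adjusted p = 0.00456, limma, Benjamini-Hochberg). These 3 genes were the only ones of 33 tested members of the TGF-beta list to pass the test, all upwards. Of all genes tested 0.403% passed upwards. The list's median was 0.04, beside 0.00428 for all genes. The type II receptor gene Tgfbr2 stayed at 35 to 39.98 TPM under vehicle and 37.4 to 39.8 TPM under 4-Cl-HIPP, with overlapping groups (log2 fold change 0.04). Smad7, the inhibitory SMAD and a classic feedback target, had a log2 fold change of 0.40 ± 0.145 that did not pass (adjusted p = 0.404, limma, Benjamini-Hochberg), with 3.06, 3.81 and 3.60 TPM under vehicle and 6.34, 3.73 and 4.93 TPM under 4-Cl-HIPP.

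The sequence before the Tgfbr1 start site is shown because this gene led the comparison and SMAD proteins bind the short element CAGAC. The 250 bases before the start of its canonical transcript (GRCm39, Gencode), searched on both strands, hold 1 match, in capitals and starting 208 bases before the start site:
Tgfbr1, chr4:47352884-47353133, plus strand: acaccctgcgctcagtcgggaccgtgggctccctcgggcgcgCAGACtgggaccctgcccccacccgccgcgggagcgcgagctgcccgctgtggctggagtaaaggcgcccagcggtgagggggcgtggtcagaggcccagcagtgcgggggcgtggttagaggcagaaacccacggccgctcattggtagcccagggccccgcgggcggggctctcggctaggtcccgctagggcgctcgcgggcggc
The same window of Skil holds 2 matches and that of Pmepa1 none. Matches of so short an element are common. CAGAC, searched on both strands, occurs in 41.5% of the same windows of 12268 protein-coding genes tested, in 42.2% of the 64 such genes that rose and in 6 of the 15 that fell. The longer SMAD palindrome GTCTAGAC occurs in 0.293% of all windows and in none of the genes that passed the test.

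Among genes for metal handling, 4-Cl-HIPP raised Mt2 (ENSMUSG00000031762, chr8:94898819-94900207, plus strand). Metallothioneins are small cysteine-rich proteins that bind zinc and copper, and their genes are induced by zinc through the factor MTF1. Mt2 read 52, 40.3 and 49.1 TPM under vehicle and 95.1, 82.6 and 107 TPM under 4-Cl-HIPP, with no overlap, and its log2 fold change was 0.99 ± 0.122 (adjusted p = 0.00136, limma, Benjamini-Hochberg). Its neighbour and paralogue Mt1 was more abundant, at 238, 259 and 244 TPM and 290, 277 and 290 TPM, with a log2 fold change of 0.21 ± 0.0617 that did not pass (adjusted p = 0.217, limma, Benjamini-Hochberg) although the groups did not overlap. Slc39a10, a zinc importer, fell from a range of 24.8 to 29.7 TPM to one of 20.01 to 20.9 TPM (log2 fold change -0.43 ± 0.0808, adjusted p = 0.0265, limma), a call that held only without vehicle replicate 1 when samples were left out in turn and otherwise had an adjusted p of 0.0577 to 0.129. The other 14 of 16 tested members of the metal list did not pass, and the list's median was -0.00555. Of all genes tested 0.501% passed.

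The core of the metal response element, TGCACNC or TGCGCNC, to which MTF1 binds, is shown for both metallothionein genes because only one of them passed the test. Stretches of 30 bases (GRCm39) are given, since exons of other transcripts lie in the 250 bases before both start sites, and the element is in capitals. Windows end at the start site of the canonical transcript, which in Mt2 is position 94899132, inside the span given above for all its transcripts, and in Mt1 is 94905710. In Mt2 the elements start 109 and 14 bases before that site, and in Mt1 16 bases before it:
Mt2, chr8:94899012-94899041, plus strand: agcatcgcctcTGCACCCggcccctcgggc
Mt2, chr8:94899102-94899131, plus strand: cggatcgcagacccttTGCGCTCagctcct
Mt1, chr8:94905680-94905709, plus strand: gggcggtcccgctgTGCACACtggcgctcc
The 250-base window of Mt2 thus holds 2 matches and that of Mt1 1. Bases after the annotated start sites were not searched, so these counts depend on the annotation and do not compare the 2 promoters. On both strands, the element occurs in 26.2% of all windows, in 25.0% of those of genes that rose and in 33.3% of those that fell. The antioxidant response element TGACNNNGC occurs in 10.7%, 9.38% and 6.67% of these sets, and the xenobiotic response element GCGTG in 40.8%, 42.2% and 20.0%. None of these shares was tested.

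A pair of inflammatory chemokine genes fell. Ccl3 (ENSMUSG00000000982, chr11:83538670-83540191, minus strand) and Ccl4 (ENSMUSG00000018930, chr11:83553383-83555509, plus strand), neighbouring genes for the chemokines MIP-1α and MIP-1β that draw leukocytes to inflamed tissue, were both called lower. Ccl3 read 28.6, 25.4 and 28.9 TPM under vehicle and 14.8, 16 and 14.6 TPM under 4-Cl-HIPP, a log2 fold change of -0.83 ± 0.106 (adjusted p = 0.00148, limma, Benjamini-Hochberg). Ccl4 read 8.19, 8.45 and 12.6 TPM and 4.12, 2.47 and 5.48 TPM, and at -1.12 ± 0.221 it had the largest change downwards of the called genes (adjusted p = 0.0352). The Ccl3 call held without each sample in turn, whereas that of Ccl4 was lost without any of them except 4-Cl-HIPP replicate 3 (adjusted p 0.0636 to 0.162, limma, Benjamini-Hochberg). Tnf, the gene of the central inflammatory cytokine, fell below the fold limit, from 38.4, 37.6 and 42.8 TPM to 27.4, 27.5 and 27.1 TPM (log2 fold change -0.52 ± 0.0788, adjusted p = 0.00652, limma). Of the 23 tested members of the cytokine and chemokine list these were the 3 that passed, all downwards, while the median of the list was 0. Of all genes tested 0.0977% passed downwards. The chemokine gene Cxcl14 and the cytokine gene Il1f9, which are not on the list, were called higher, at 0.59 and 0.67 on the log2 scale. Cxcl10, an interferon-inducible chemokine, had a log2 fold change of -0.77 ± 0.299 with overlapping groups.

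Among the listed macrophage receptor genes, 2 passed the test, both downwards, beside 0.0977% of all genes tested that passed downwards. Msr1 (ENSMUSG00000025044, chr8:40034726-40095714, minus strand), the class A scavenger receptor that takes up modified lipoproteins, read 8.94, 13 and 8.24 TPM under vehicle and 5.11, 4.82 and 5.12 TPM under 4-Cl-HIPP (log2 fold change -0.85 ± 0.131, adjusted p = 0.00652, limma, Benjamini-Hochberg). Cd14, the co-receptor for bacterial lipopolysaccharide, read 135, 145 and 149 TPM and 91.6, 120 and 100 TPM, a log2 fold change of -0.46 ± 0.0705 (adjusted p = 0.00652, limma). The other 30 of 32 tested receptor genes did not pass, and their list's median was 0.0867, on the higher side. The scavenger receptor gene Olr1, which binds oxidised low-density lipoprotein, went the other way and was called higher at a very low level, from 0.129, 0.203 and 0.0725 TPM to 1.91, 0.608 and 1.11 TPM. The call (log2 fold change 0.92 ± 0.174, adjusted p = 0.0265, limma) was lost without any sample except 4-Cl-HIPP replicate 2, with adjusted p-values of 0.0712 to 0.117.

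Of 38 tested genes of the immediate early list, 3 passed the test, all upwards, beside 0.403% of all genes tested that passed upwards. Jun (ENSMUSG00000052684, chr4:94937271-94940459, minus strand) and Jund (ENSMUSG00000071076, chr8:71151599-71153265, plus strand) encode components of the AP-1 transcription factor, which responds to growth factors and stress. Jun read 14.4, 10.01 and 14.5 TPM under vehicle and 23.6, 22 and 26.1 TPM under 4-Cl-HIPP (log2 fold change 0.85 ± 0.129, adjusted p = 0.00652, limma, Benjamini-Hochberg). Jund was several times more abundant, at 78.6, 80.4 and 83.1 TPM and 144, 116 and 128 TPM (log2 fold change 0.67 ± 0.102, adjusted p = 0.00652, limma). Rgs2, a regulator that switches off G protein signalling, had tight groups, 30.1, 30.8 and 29.8 TPM against 56.5, 53.3 and 51.4 TPM. The call (log2 fold change 0.81 ± 0.154, adjusted p = 0.0281, limma) was lost without each of the 6 samples in turn (0.0716 to 0.12) in the fit of all groups, and passed with only the 6 samples compared (0.0262). The list's median was 0.0612.

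A few genes for glycan assembly and for the cell surface and matrix also passed the test upwards, 3 in each list. Of all genes tested 0.403% passed upwards. B4galt1 (ENSMUSG00000028413, chr4:40804602-40854046, minus strand), a Golgi galactosyltransferase of glycoprotein and lactose synthesis, read 47.4, 41.3 and 45.2 TPM under vehicle and 85.3, 69.6 and 76 TPM under 4-Cl-HIPP (log2 fold change 0.77 ± 0.0885, adjusted p = 0.00109, limma, Benjamini-Hochberg). Extl3 and Xylt1, enzymes of heparan sulphate elongation and of the first sugar of proteoglycan chains, rose by 0.52 and 0.46 on the log2 scale. The Extl3 call was lost without 4-Cl-HIPP replicate 1 (adjusted p = 0.0634, limma) or vehicle replicate 3 (0.0535), and that of Xylt1 without 4-Cl-HIPP replicates 1 or 3 or vehicle replicates 1 or 2 (0.0632 to 0.111). Together these were 3 of 35 tested genes of the list, none of which fell past the test, and its median was 0.0223. St3gal5, a sialyltransferase not on the list and named after its values were seen, fell, with a log2 fold change of -0.27 (adjusted p = 0.0373, limma), and its adjusted p was 0.0697 to 0.161 when any sample other than vehicle replicate 1 was left out. Xylt2, the paralogue of Xylt1, had a log2 fold change of 0.01 with overlapping groups. Chst3, a chondroitin 6-sulphotransferase not on the list, rose from 5.04, 5.19 and 5.01 TPM to 9.14, 8.04 and 7.84 TPM (log2 fold change 0.62 ± 0.108, adjusted p = 0.0153), but without 4-Cl-HIPP replicate 1 or any vehicle replicate its adjusted p was 0.0559 to 0.0953 (limma, Benjamini-Hochberg).

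Angptl2 (ENSMUSG00000004105, chr2:33105946-33138252, plus strand), a secreted angiopoietin-like protein linked to inflammation, rose from 43.2, 36.1 and 40.5 TPM to 72.6, 59.1 and 67.2 TPM (log2 fold change 0.72 ± 0.0888, adjusted p = 0.00139, limma, Benjamini-Hochberg). Angptl4 and Angpt2, of the same wider family, did not pass, at 0.13 and -0.56. Plau, the urokinase protease, and Itga5, the alpha chain of the fibronectin receptor, rose by 0.46 and 0.46 (adjusted p = 0.0294 and 0.0113, limma). Without 4-Cl-HIPP replicate 1 these became 0.136 and 0.0738, and Itga5 was also lost without vehicle replicates 1 and 2 (0.0597 and 0.0673) and Plau without each sample but 4-Cl-HIPP replicate 2. With Angptl2 they were 3 of 29 tested genes of the matrix list, whose median was 0.0129, beside 0.403% of all genes tested that passed upwards.

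Both inhibitory receptor genes that passed rose. Pdcd1, which encodes the checkpoint receptor PD-1, read 20.3, 19.9 and 18 TPM under vehicle and 28.2, 29.5 and 26.2 TPM under 4-Cl-HIPP (log2 fold change 0.51 ± 0.0622, adjusted p = 0.00136, limma, Benjamini-Hochberg). Havcr2, which encodes the checkpoint receptor TIM-3, read 17.4, 16.5 and 17.5 TPM and 32.9, 27.9 and 29 TPM (log2 fold change 0.77 ± 0.135, adjusted p = 0.0168, limma). The Pdcd1 call held without each sample, while that of Havcr2 held only without 4-Cl-HIPP replicate 2 (otherwise 0.0592 to 0.0985). The other 20 of 22 members did not pass and the list's median was 0.0328. Of all genes tested 0.403% passed upwards.

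The other called genes had varied roles. Usp2 (ENSMUSG00000032010, chr9:43978264-44006924, plus strand), a deubiquitinase under circadian control, rose from 32.5, 28.5 and 33.3 TPM to 58.2, 59.6 and 55 TPM (log2 fold change 0.86 ± 0.133, adjusted p = 0.00751, limma, Benjamini-Hochberg) and held without each sample. Agap1, an Arf GTPase-activating protein of endosomal traffic, rose from 15.1, 15.3 and 15.4 TPM to 25.3, 23.2 and 22 TPM (adjusted p = 0.000474). At 0.59 ± 0.0610 it lay just above the fold limit of 0.585 and was under it without 4-Cl-HIPP replicate 1 or vehicle replicate 1, with adjusted p-values of 0.00393 and 0.00371. Neurl3, an E3 ubiquitin ligase, rose from a range of 28.8 to 30.4 TPM to one of 43.5 to 51.7 TPM (log2 fold change 0.64 ± 0.104, adjusted p = 0.00973, limma), and was lost without 4-Cl-HIPP replicate 1 (0.066) or vehicle replicate 2 (0.0554).

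Pdlim7, a scaffold of the actin cytoskeleton, rose from 23.9, 25.5 and 25.4 TPM to 33, 40.1 and 43 TPM (0.61 ± 0.103 on the log2 scale). Cxcl14, a chemokine made without inflammation in many tissues, rose from 80.3, 75.9 and 85.9 TPM to 131, 108 and 129 TPM (0.59 ± 0.101), against the direction of Ccl3 and Ccl4. Gdpd5, a glycerophosphodiester phosphodiesterase, had tight groups of 10.4, 9.95 and 10.4 TPM and 16.3, 17.2 and 16.3 TPM (0.65 ± 0.120) and, like Rgs2, passed with only the 6 samples compared (adjusted p = 0.0262, limma, Benjamini-Hochberg). Ranbp3l, which encodes a nuclear export factor, fell from 28.2, 30.4 and 24.3 TPM to 18.2, 20.7 and 13.6 TPM (-0.64 ± 0.132). Their adjusted p-values were 0.0128, 0.0128, 0.0247 and 0.0445. Each was lost without 4 or more of the 6 samples, to at most 0.0683 for Pdlim7, 0.0828 for Cxcl14, 0.0979 for Gdpd5 and 0.175 for Ranbp3l, the last without vehicle replicate 2.

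Including Olr1, 4 called genes had a vehicle mean below 1 TPM. Tmem119, a membrane protein used as a microglial marker, read 0.321, 0.347 and 0.568 TPM under vehicle and 2.92, 1.318 and 2.04 TPM under 4-Cl-HIPP. P2ry13, a purine receptor, read 0.339, 0.442 and 0.381 TPM and 1.07, 0.894 and 1.37 TPM. Il1f9, the cytokine interleukin-36 gamma, was listed at 0 in vehicle replicates 1 and 3, read 0.143 TPM in replicate 2 and read 0.632, 0.580 and 0.795 TPM under 4-Cl-HIPP. The groups did not overlap in any of them, with log2 fold changes of 1.10 ± 0.183, 0.60 ± 0.121 and 0.67 ± 0.139 and adjusted p-values of 0.0109, 0.0397 and 0.0477 (limma, Benjamini-Hochberg), and each was lost without 4 or more of the 6 samples (at most 0.0634, 0.171 and 0.174). The pseudogene Gm29257 was called lower (adjusted p = 0.0162), at 1.21, 0.830 and 1.35 TPM under vehicle and listed at 0 in all 3 samples under 4-Cl-HIPP, and was lost without 4-Cl-HIPP replicates 1 or 3 or vehicle replicates 1 or 3 (0.0627 to 0.0876). The fit adds 1 to each TPM before the log. With 0.1 added instead, adjusted p-values were 0.0691 for Tmem119, 0.421 for P2ry13, 0.0593 for Il1f9 and 0.0615 for Gm29257 (limma), while Olr1 kept its call. With 5 added, all of these genes lay under the fold limit. The libraries were not stranded, and exons of 11 of the 25 called genes overlap a gene on the opposite strand and of 2 a gene on the same strand, whose reads cannot be told apart.

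**Figure D2:**
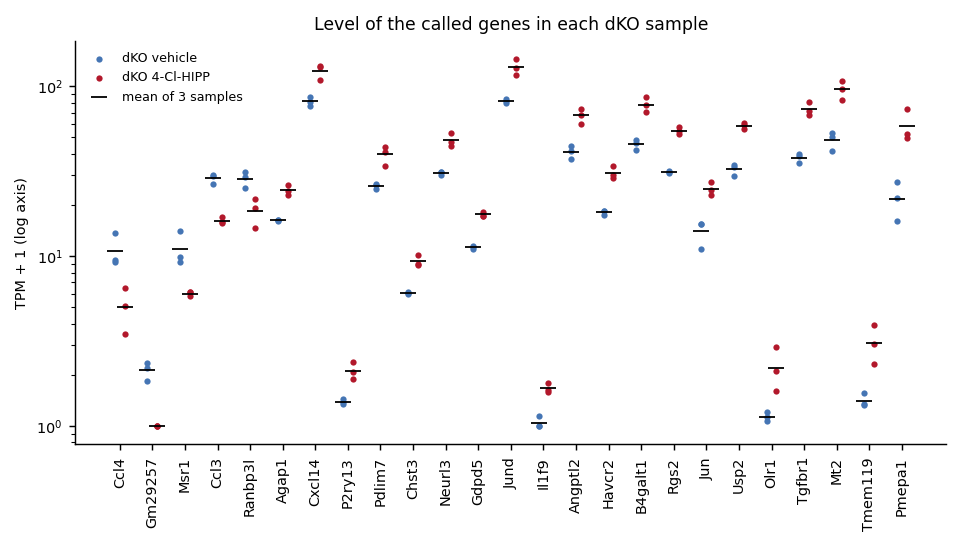
TPM + 1 on a log axis (y) of the 25 called genes (x, ordered by log2 fold change from the most negative) in the 3 dKO vehicle samples (blue) and the 3 dKO 4-Cl-HIPP samples (red), with the mean of each group as a black bar. In all 25 genes, which were called from these same samples, the red and blue points do not overlap, as in 13.7% of all genes tested. Gm29257, Il1f9, Olr1, P2ry13 and Tmem119 lie at the bottom of the axis.

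Of the 15 genes with the smallest p-values, 9 rose by less than the fold limit, Pdcd1 among them. Cpd, a Golgi carboxypeptidase, read 30.2, 29.4 and 28.3 TPM under vehicle and 43.1, 39.6 and 40.6 TPM under 4-Cl-HIPP (0.47 ± 0.0412 on the log2 scale, adjusted p = 7.14e-05, limma, Benjamini-Hochberg). Ank, a membrane protein that exports pyrophosphate and ATP, was the most abundant of them, from 498, 463 and 472 TPM to 734, 635 and 689 TPM (0.52 ± 0.0570, adjusted p = 0.000753, limma). Fads2, the delta-6 desaturase of polyunsaturated fatty acids, rose from a range of 206 to 218 TPM to one of 264 to 282 TPM (0.36 ± 0.0430, adjusted p = 0.00136, limma). These calls held without each of the 6 samples in turn. With only those 6 samples in the fit they were lost (adjusted p = 0.064, 0.114 and 0.0795, limma).

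Fmnl3, an actin-assembling formin, rose by 0.57 and passed with only the 6 samples compared (adjusted p = 0.0364, limma, Benjamini-Hochberg). Emp1, an epithelial membrane protein, rose by 0.55, Kcnn4, a calcium-activated potassium channel, by 0.39, Golm1, a Golgi membrane protein, by 0.44, and Arhgap45, a GTPase-activating protein, by 0.30 (adjusted p = 0.00147, 0.00147, 0.00148 and 0.00456). Chosen after their values were seen, Socs3, the feedback inhibitor of cytokine receptors, rose from 9.79, 10.6 and 10.3 TPM to 15.7, 15.1 and 15.1 TPM (0.54 ± 0.0813, adjusted p = 0.00652, limma), and Car2, carbonic anhydrase 2, fell from a range of 158 to 170 TPM to one of 118 to 134 TPM (-0.35 ± 0.0511, adjusted p = 0.00575, limma). All of these genes, Fmnl3 included, held without each sample in turn. With only the 6 samples compared in the fit, all but Fmnl3 were lost (adjusted p 0.064 to 0.203, limma).

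Genes of sterol synthesis lay mostly on the higher side, by small amounts. They make cholesterol from acetyl-CoA and are switched on together by the factor SREBP2 when membrane sterol is low. Of 27 tested, 24 were on the higher side under 4-Cl-HIPP, with a median log2 fold change of 0.204, against 51.9% of all genes tested on the higher side and their median of 0.00428. The test was passed by 3: Hmgcs1, the synthase that makes HMG-CoA, at 43.6, 39.7 and 40.2 TPM under vehicle and 59.3, 54.1 and 52.2 TPM under 4-Cl-HIPP (0.41 ± 0.0670 on the log2 scale, adjusted p = 0.00973, limma, Benjamini-Hochberg), Mvd, which makes isopentenyl pyrophosphate, at 26.8, 28.7 and 27.5 TPM and 39.2, 35.7 and 38.1 TPM (0.43 ± 0.0803, 0.0244), and Stard4, a sterol carrier, at 25.2, 20.9 and 22.9 TPM and 33.1, 30.7 and 28.7 TPM (0.41 ± 0.0802, 0.0338). A further 11 had an unadjusted p below 0.05 only, such as Idi1 at 0.25 and Sqle at 0.23 on the log2 scale. Of all genes tested 0.501% passed the test, and 1388 of 16383 had an unadjusted p below 0.05 (limma). The summed level of the list was 1428, 1469 and 1491 TPM under vehicle and 1638, 1645 and 1605 TPM under 4-Cl-HIPP, so every treated sample was above every vehicle sample. Leaving out samples in turn left 22 to 24 members on the higher side and a median of 0.17 to 0.242, but 0 members passed the test without 4-Cl-HIPP replicate 1 or without vehicle replicate 2.

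Interferon-induced genes lay on the lower side, none of them past the test. These antiviral genes are switched on through the type I interferon receptor. Of 57 tested, 49 had a negative log2 fold change, with a median of -0.212. Of all genes tested 51.9% were on the higher side, and their median was 0.00428. In the list 22 had an unadjusted p below 0.05, as had 1388 of all 16383 genes. Irf8 and Irf1, interferon regulatory factors, were among the 22 but on the higher side, at 0.30 and 0.29. The nearest to the threshold was Usp18, which removes ISG15 from proteins, at 38.7, 28.6 and 35.4 TPM under vehicle and 19.9, 23.1 and 20.8 TPM under 4-Cl-HIPP (-0.65 ± 0.141 on the log2 scale, adjusted p = 0.0558, limma, Benjamini-Hochberg). Isg15 itself read 23.3, 11.4 and 21.2 TPM and 10.5, 13.9 and 10.6 TPM with overlapping groups. Vehicle replicate 2 was the low one: the list summed to 1562, 1365 and 1692 TPM in the vehicle samples and to 1264, 1443 and 1292 TPM in the 4-Cl-HIPP samples, and the groups overlapped. Without that vehicle sample 2 members passed, Usp18 and Irgm1 (named after its values were seen), and the median was -0.273, and without vehicle replicate 3 the median was -0.147 with 0 passing.

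**Figure D3:**
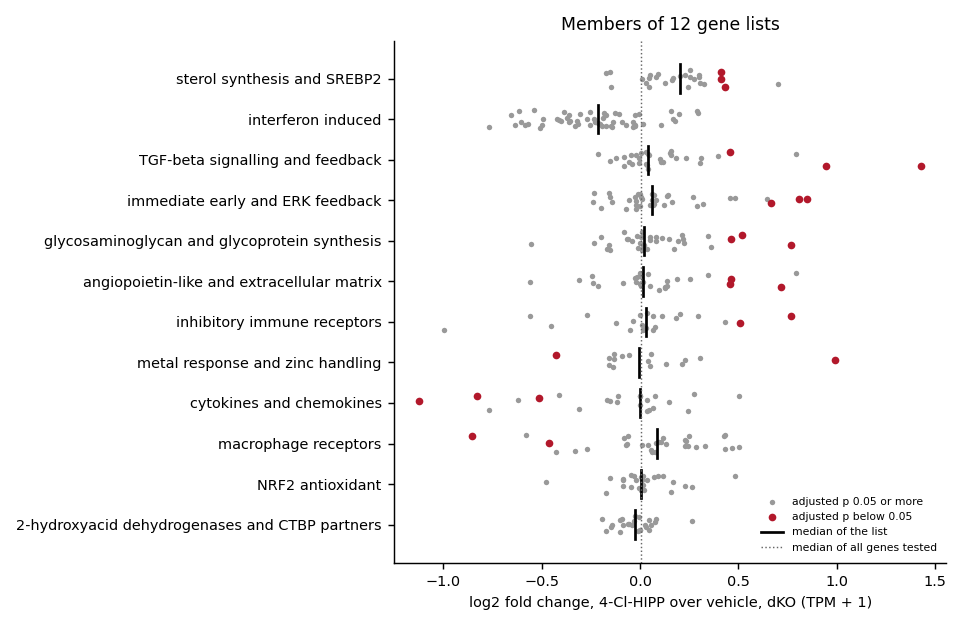
Log2 fold change of 4-Cl-HIPP over vehicle in dKO cells (x) for the members of 12 gene lists (rows), 1 point per gene, red where the adjusted p was below 0.05, with the list's median as a black bar and the median of all genes tested as a dotted line. The sterol list is shifted right (median 0.204) and the interferon list left (median -0.212), whereas the other lists centre near 0 with single genes that stand out.

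In most of the other programmes listed, none or 1 member passed. Of all genes tested 0.501% passed, so lists of this size would mostly hold none. A count of 0 does not show that a programme did not respond. The NRF2 antioxidant list, which responds to electrophiles, had 0 of 27, with a median of 0.00753, and Srxn1 at 0.23 and Glrx at 0.26 on the log2 scale. The aryl hydrocarbon receptor list had 0 of 8, the integrated stress response list 0 of 28 and the ER stress list 0 of 21, and the hypoxia and glycolysis list had 0 of 31. Of PPAR and fatty acid oxidation genes 0 of 28 passed, Lpl at -0.26 and Cpt1a at 0.42 being the nearest, and of LXR targets 0 of 17. The NF-kB list had 0 of 22 with a median of 0.0254, beside the fall of Ccl3, Ccl4 and Tnf. Among 25 hydroxyacid dehydrogenases and CTBP partners 0 passed, with a median of -0.0278, among 29 translation elongation genes 0, and among 40 genes of DNA replication and mitosis 0. Polyamine and methionine cycle genes had 0 of 23 and p53 targets 0 of 24. In each of these lists 2 to 7 members had an unadjusted p below 0.05 (limma), as had 1388 of all 16383 genes. The shares differed, from 2 of 25 dehydrogenases and CTBP partners to 7 of 31 hypoxia and glycolysis genes and 2 of 8 aryl hydrocarbon receptor genes. They were not tested.

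Single genes also passed in the actin cytoskeleton, heat shock and aromatic keto acid and amino acid lists. Myh9, non-muscle myosin heavy chain, rose by 0.21. Hspd1, the mitochondrial chaperonin HSP60, had a log2 fold change of -0.12 and Bcat1, the cytosolic branched-chain amino acid transaminase, of -0.17, both downwards. Their adjusted p-values were 0.034, 0.0423 and 0.0423 (limma, Benjamini-Hochberg), and each was lost without 4 or more of the 6 samples, at most to 0.147, 0.164 and 0.171.

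To ask whether these effects differ from those in cells with CTBPs, the same comparison was made in wildtype J774.1 cells, which share no samples with it. Both comparisons used the same estimate of each gene's spread, so passing in one is not independent of passing in the other. In wildtype, 60 genes (0.366% of those tested) passed an adjusted p of 0.05 under 4-Cl-HIPP. Of the 82 genes that passed in dKO cells, 80 moved the same way in wildtype, as 54.9% of all genes did, and 35 also passed there. Of the 25 called, 23 moved the same way and 9 passed in wildtype. The median log2 fold change of the 66 genes that rose was 0.46 in dKO and 0.38 in wildtype cells, and that of the 16 that fell was -0.45 and -0.24, values that were picked on the dKO side and are given as a description.

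Several of the genes with the largest changes upwards in dKO cells passed in wildtype as well. Tgfbr1 had a log2 fold change of 0.87 ± 0.0695 in wildtype, from a range of 23.9 to 24.3 TPM to one of 42.6 to 48.8 TPM, Pmepa1 1.60 ± 0.241, Mt2 1.23 ± 0.122 and Angptl2 0.97 ± 0.0888, all past the test there (adjusted p = 2.21e-05, 0.00763, 0.000161 and 6.69e-05, limma, Benjamini-Hochberg). In wildtype Ccl3 had a log2 fold change of -0.28 and Ccl4 of -0.25, and neither passed. Sterol genes had a median of 0.241 in wildtype and interferon genes of -0.14.

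The difference of the effect between genotypes was tested as an interaction, which no gene passed at an adjusted p of 0.05 (limma, Benjamini-Hochberg, smallest 0.163), while 734 genes (4.48%) had an unadjusted p below 0.05. Of the 25 called genes 9 were among these, and of the 82 genes 17, although the dKO effect that chose them is part of the interaction. For Ccl3 the effect in dKO minus that in wildtype was -0.55 (adjusted p = 0.83), for Ccl4 -0.87 (1), for Jun 0.47 (1) and for Tgfbr1 0.07 (1, limma, Benjamini-Hochberg). A p-value that misses the threshold does not show that the effects are equal. The 4-Cl-HIPP samples lay apart from the vehicle samples in opposite directions in the 2 genotypes in 71 of the genes tested (0.433%). The gene with the smallest interaction p, the transcript 2900009J06Rik, read 0.710 to 1.38 TPM under vehicle and 0 to 0.726 TPM under 4-Cl-HIPP in dKO cells, and in wildtype it was listed at 0 in all 3 vehicle samples and read 0.762 to 2.25 TPM under 4-Cl-HIPP (adjusted p = 0.163, limma).

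**Figure D4:**
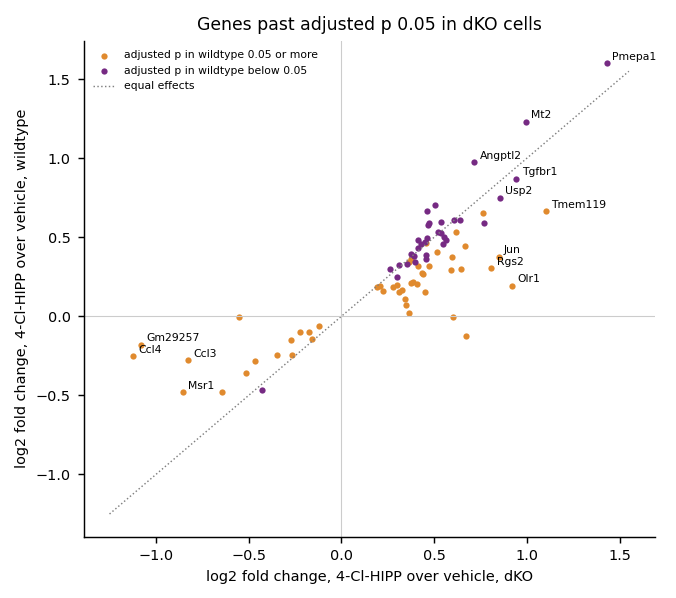
Log2 fold change of 4-Cl-HIPP over vehicle in dKO cells (x) against that in wildtype cells (y) for the 82 genes past adjusted p 0.05 in dKO cells. Purple points (35 genes) also passed in wildtype, and the dotted line marks equal effects. Pmepa1, Mt2, Angptl2 and Tgfbr1 lie near or above the line, and Ccl3, Ccl4, Gm29257, Olr1 and Tmem119 lie nearer 0 on the wildtype axis.

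MTOB, a methylthio-oxobutyrate also used against CTBPs, was given to the same dKO cells at 1.5 mM and set against the same 3 vehicle samples, so that its values stand beside those of 4-Cl-HIPP without a comparison. Under MTOB the log2 fold change of Ccl3 was 1.21 ± 0.106, of Ccl4 1.16 ± 0.221, of Tnf 1.24 ± 0.0788 and of Cd14 1.18 ± 0.0705, where 4-Cl-HIPP gave -0.83, -1.12, -0.52 and -0.46. Tgfbr1 read -0.29 ± 0.0695 under MTOB and 0.94 under 4-Cl-HIPP, Usp2 -0.68 ± 0.133 and 0.86, and B4galt1 -0.39 ± 0.0885 and 0.77. The values were 1.19 ± 0.0412 and 0.47 for Cpd, 1.27 ± 0.0622 and 0.51 for Pdcd1, and 0.56 ± 0.122 and 0.99 for Mt2. The NRF2 list had a median of 0.475 under MTOB and 0.00753 under 4-Cl-HIPP, and the interferon list 0.22 and -0.212. Over all genes tested the medians were -0.0127 and 0.00428. These genes and lists are examples, and the share of genes with opposite directions is not given here.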

How the data were processed

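RNA of J774.1 cells was sequenced in 18 samples from libraries made with an unstranded mRNA kit (poly(A) RNA per the labels, while the study's methods speak of rRNA depletion), and samples were grouped by their titles. The authors quantified transcripts with Salmon 1.9.0 on Gencode M28 (GRCm39), summarised them per gene and deposited the TPM of 18204 genes in 1 table. Its columns sum to between 999766 and 999897 per sample, so depth is unknown here. As deposited, the table has a signal column too, in which the authors give each gene's average normalized count from DESeq2 1.44.0. The authors' log2 fold changes and adjusted p-values for each inhibitor in each genotype were not used. Read counts were not analysed here.

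Genes above the 10th percentile of that average (0.222) were fitted on log2(TPM + 1), which understates the change of low genes, with 6 group means over all 18 samples and a variance trend (limma 3.58.1, R 4.3.3, 12 residual degrees of freedom). Contrasts were adjusted by Benjamini-Hochberg over 16383 genes and called at an adjusted p below 0.05 and 1.5-fold. Alternatives changed the pseudocount, filter, scaling, trend, block, samples and fold limit. The procedure was also run on simulated data with independent noise and changes placed only in well-expressed genes. That run does not show how changes at low TPM or samples that share a batch are handled. Members and gene lists were chosen with earlier results of these data known. Lists, written from general knowledge, are given by counts and medians. Named genes are all called genes, the 15 with the smallest p, the 5 with the smallest interaction p, list members that passed (otherwise up to 3 with the largest change and a mean of at least 5 TPM), and set paralogues. Others were chosen after their values were seen. A gene that met this rule is not reported here. Positions and sequences come from GRCm39 with Gencode M39, in which 99.5% of genes tested had a position. Figures used matplotlib 3.10.9.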

Additional observations from a re-analysis of the deposited data

Results flagged for a closer look

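In 4 of the 138 genes chosen to be named, as in 71 (0.433%) of all 16383 tested, all 3 dKO samples under 4-Cl-HIPP lay on one side of the dKO vehicle samples and all 3 wildtype samples on the opposite side of theirs. All 4 were among the 5 genes named for having the smallest interaction p, so they were chosen for this difference and their count is a description. Coro2a, an actin-binding coronin, read 0.603 to 0.753 TPM under vehicle and 0.972 to 1.13 TPM under 4-Cl-HIPP in dKO cells, and 1.897 to 4.01 and 0.630 to 0.847 TPM in wildtype cells, a log2 difference of the effect (dKO minus wildtype) of 1.442. Timm17b, a subunit of the mitochondrial import machinery, read 39.2 to 42.7 and 28.2 to 35.1 TPM in dKO cells and 32.5 to 34.1 and 39.1 to 51.6 TPM in wildtype, a difference of -0.85. Polr2b, a subunit of RNA polymerase II, read 90.5 to 108 and 67.4 to 70.8 TPM in dKO cells and 70.9 to 104 and 117 to 124 TPM in wildtype, a difference of -1.08. Tsc2, a repressor of mTORC1, read 39.2 to 46.9 and 32.9 to 37.9 TPM in dKO cells and 28.1 to 31.8 and 35.1 to 45.7 TPM in wildtype, a difference of -0.66. The interaction test did not pass for any of them after adjustment (adjusted p = 0.253, 0.253, 0.391 and 0.599, limma with Benjamini-Hochberg).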

How the results depend on the processing

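None of the 82 genes that passed changed its direction under an alternative. Their groups did not overlap, so leaving out a sample or changing the pseudocount could not reverse it. The kept direction is therefore no support for the calls. The balance of higher and lower calls did change. The 25 calls in dKO cells (20 higher) became 13 with a pseudocount of 5, 7 with only the 6 samples compared (3 higher, 4 lower), 12 with only the 9 dKO samples, 0 with only those 6 samples and a replicate block, 82 without a fold limit and 4 at a fold limit of 2 (2 higher, 2 lower), and ranged from 12 to 31 with 1 sample left out (12 without 4-Cl-HIPP replicate 1). The split was 18 higher and 9 lower when genes needed an average normalized count of 10, and 18 and 7 after rescaling by the median ratio. Same-numbered dKO samples did not deviate together (correlations 0.0402, -0.0143 and -0.0463 over 11044 genes). Such correlations of deviations from means of 3 samples cannot show whether same-numbered samples shared a culture day or batch. The main fit did not pair them. The replicate block gave 23 calls, 22 of them among the 25, and the genotype-specific block 19. The interaction had 0 genes, 2 with only the 12 vehicle and 4-Cl-HIPP samples, and 0 to 3 with 1 sample left out (3 without wildtype vehicle replicate 2). The 23 wildtype calls became 15 with only the 6 wildtype samples. Depth is unknown, so the precision of genes near 0 TPM cannot be given, and 3 samples a group from unstated clones limit what the p-values cover.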
